A study of Mus musculus with 2 samples.

Results

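The translation initiation and elongation factors were taken as all protein-coding autosomal genes whose symbols start with Eif1 to Eif6, Eef1 or Eef2, without the Eif2ak kinases and without pseudogenes. The rule used names, gene types and chromosomes and no expression value, and it gave 61 genes of the 54531 in the table. Haematopoietic stem cells (HSCs), the cells that renew the blood, had been sorted from mouse bone marrow for RNA sequencing. Control HSCs came from mice labelled Angptl2fl/fl, with floxed alleles of the gene of a secreted angiopoietin-like protein. The other HSCs came from Cdh5-Cre;Angptl2fl/fl mice, in which Cre is driven by the promoter of the endothelial cadherin gene Cdh5 and in which the labels place the loss of Angptl2 in endothelial cells. Floxed alleles are therefore shared by both genotypes as labelled, but the description of the control sample names Cdh5 and Cre and no floxed allele, so whether control mice carried Cre is not settled. The sources used here give neither age, sex and sort markers nor how many mice went into a library. Each genotype has 1 library, named the control and the deletion library, and "control HSCs" and "deletion HSCs" stand for the cells of these 2 libraries. With no replicates there is no test and no p-value, and "higher" and "lower" compare these libraries and not the genotypes.

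Translation starts when the initiation factor eIF2, holding GTP and the initiator tRNA, joins the small ribosomal subunit together with eIF1, eIF1A, eIF3 and eIF5. The eIF4 factors bring in the mRNA by its cap: eIF4E binds the cap, eIF4G is the scaffold and eIF4A unwinds structure, while eIF4E-binding proteins block the contact between eIF4E and eIF4G. After start codon recognition eIF5B joins the subunits, eEF1A delivers each aminoacyl-tRNA, and eEF2 moves the ribosome along. HSCs are known for a low rate of protein synthesis compared with most of their progeny, and raising or lowering that rate is known to harm them.

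The deposited values are FPKM, which is the number of fragments on a gene scaled by its length in kilobases and by library depth. Multiplied by the exon length, they fell on whole numbers of fragments for 96.5% of genes above 0 in control and 96.1% in deletion HSCs (tolerance 0.02 of a fragment). The depth read from these steps was 17378619 and 16843115 fragments. Above 0 stood 21891 genes in the control library and only 18217 in the deletion library. Among factor genes, 58 gave whole fragments, and the other 3 (Eif1a, Eif1ad and Eif3a) have no fragment number or interval here. The most common fragment number of a gene above 0 was 1 in the control library (1389 genes) and 6 in the deletion library (453 genes, with 295 genes at 1 fragment). Counting intervals were therefore computed both from the fragments and from a smaller number of fragments (divided by 6, which was picked once this was seen). Where an interval is printed, it excludes or includes equality on both bases unless said otherwise. The part of this pattern in any ratio was not tested. Angptl2 itself had 29 fragments in control HSCs and 19 in deletion HSCs, which is too low to check the genotypes. Of 12 HSC markers, 11 reached a mean of 1 FPKM, and 10 of these 11 were lower in the deletion library (median log2 ratio -0.18, -0.33 at a common total). Over all genes 48.4% of ratios were above 0, 30.8% at a common total, with medians of -0.011 and -0.15. The sum of the 12 markers was 158 FPKM in control and 143 FPKM in deletion HSCs. Kit was at 54.3 and 48.8 FPKM and Ly6a at 4.49 and 2.86, while Slamf1 was at 0.40 and 0.55 FPKM. Markers of other lineages were present. The summed level of 8 neutrophil lineage genes was 1902 FPKM in control HSCs and 2980 in deletion HSCs, that of 6 erythroid genes 1647 and 1962, and that of 5 megakaryocyte genes 56.1 and 149. Within the neutrophil list 4 genes were 2-fold higher and 4 were 2-fold lower in the deletion library. Within the erythroid list Car1 made up most of the sum (1315 and 1629 FPKM), and 3 of 6 ratios were below 0, with Alas2 (4.53 and 1.51 FPKM) 2-fold lower. The sum of 6 monocyte and macrophage genes was 36.4 and 17.0 FPKM. The sum of 6 B lineage and plasma cell genes was 28.2 and 25.2 FPKM, and that of 4 endothelial genes 4.64 and 4.04. Of the endothelial sum, Pecam1 made up 3.84 and 3.55. Cdh5 was at 0.027 and 0 FPKM, Kdr at 0.096 and 0.138, and Emcn at 0.67 and 0.35. The sum of 6 T and NK genes was 30.9 and 78.8, of which Nkg7 made up 29.1 and 78.0. The T cell genes Cd3e, Cd3g and Cd8a stood at 0.174 FPKM or less in the control library and were listed at 0 in the deletion library. Cd4 was at 1.04 FPKM in control and 0.515 in deletion HSCs, from 73 and 35 fragments. In bulk RNA, fewer cells of a type and less RNA per cell cannot be told apart, and the part of the differing markers in the factor genes' values was not tested.

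The promoters of many factor genes carry the E-box CACGTG, a hexamer bound by MYC and by USF proteins, or the ETS core CCGGAAG. RefSeq start-site windows on GRCm38.p6, running from 250 bases before to 50 bases after the start, were found for 45 of the 61 genes. Windows of 30 bases from genes of different steps are shown 5′ to 3′ on the gene's strand, because these motifs were in a larger share of factor promoters than of all promoters. Capitals mark the E-box.
Eef2 (chr10:81176577-81176606, plus strand): cccggcgccgtCACGTGacgcacccaaccg
Eif4g1 (chr16:20672662-20672691, plus strand): gcagtgggtgtCACGTGatggggcggagca
Eif3k (chr7:28981914-28981943, minus strand): tggaaggaaatCACGTGgtagacaaaaaaa
Eif3f (chr7:108934336-108934365, plus strand): aagatatgattCACGTGgtataaatttagc
Eif4h (chr5:134639487-134639516, minus strand): ggccgccgcacCACGTGggccgcagagcgc
In these 5 genes the hexamer begins 43 (Eef2), 54 (Eif4g1), 44 (Eif3k), 68 (Eif3f) and 96 (Eif4h) bases before the start. The next 3 windows show the ETS core in capitals, on the gene's strand or as its complement.
Eif3g (chr9:20898616-20898645, minus strand): cggccgcggcaCCGGAAGcctcttctactc
Eif3m (chr2:105017064-105017093, minus strand): ctgtggctgacCCGGAAGcggttgtgcgta
Eif3d (chr15:77970876-77970905, minus strand): gctgtgacacaCTTCCGGttgtgtctcact

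Searched on both strands, CACGTG occurred in 13 of the 45 factor genes (28.9%), against 8.09% of all 27025 genes with windows. Promoters of expressed genes are the closer reference. Among protein-coding genes at a mean of 20 FPKM or more, 10 of 35 factor genes (28.6%) held it against 13.4% of 2200 genes. CCGGAAG occurred in 15 of 45 factor genes (33.3%) against 9.93% of all genes, and in 13 of 35 (37.1%) against 25.7% at a mean of 20 FPKM or more. CCAAT, another common promoter element, went the other way, at 11 of 35 (31.4%) against 43.3%. TATAAA, read on the gene's strand, was in 4 of 35 (11.4%) against 5.86% at that level, and in 8.89% of the 45 genes against 9.77% of all genes. Matches of CACGTG and CCGGAAG cannot share bases. Where a gene had several windows, a match in any of them counted. A match is a description of letters and not a binding site.

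The motif groups had overlapping values. Among genes at a mean of 1 FPKM or more, the 13 with CACGTG had a median of 91.1 FPKM in control HSCs and 88.0 in deletion HSCs, and the 31 without it 39.4 and 34.0. Their log2 ratios ran from -0.23 to 0.40 with the hexamer and from -0.41 to 0.42 without. mRNAs of many translation factors begin with a pyrimidine tract that ties them to mTORC1 signalling (the TOP motif), so runs of at least 8 C or T letters were searched on the gene's strand within 15 bases of the start. They were found in 9 of 45 factor genes (20%) against 13.9% of all genes, and in 8 of 44 (18.2%) against 14.9% of protein-coding genes from 1 FPKM upward. Windows of Eef1a1 and of the eIF3 subunit genes Eif3f and Eif3l show such tracts in capitals. The mRNA of Eef1a1 is a known TOP mRNA, but whether the letters marked here are its TOP motif was not tested.
Eef1a1 (chr9:78481710-78481739, minus strand): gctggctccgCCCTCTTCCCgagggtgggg
Eif3f (chr7:108934400-108934429, plus strand): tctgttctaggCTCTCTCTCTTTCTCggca
Eif3l (chr15:79075208-79075237, plus strand): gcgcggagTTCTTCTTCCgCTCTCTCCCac
RefSeq starts can lie off the starts used in HSCs, so the absence of a tract says only that these letters are not in the window. A marked tract, that of Eef1a1 included, can likewise lie in the promoter and outside the mRNA.

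Levels of the factor genes spanned more than 3 orders of magnitude in both libraries, and their order was nearly the same in each. Elongation factors were the most abundant. Eef1a1 (chromosome 9, 78478449 to 78489151, minus strand, GRCm38), which encodes the tRNA-delivering factor eEF1A1, was at 3965 FPKM in control HSCs and 4572 in deletion HSCs. Eef2 (chromosome 10, 81176631 to 81182498, plus strand), the single gene of the translocation factor, followed at 2028 and 1939 FPKM. Next came Eif5a at 619 and 691 FPKM and Eef1g at 487 and 547 FPKM. The 5 highest ranks were held by the same genes in both libraries, and no gene moved by more than 7 ranks of 61. At 100 FPKM or more in both libraries stood 16 genes, 34 lay between 10 and 100 FPKM, 10 were under 10 FPKM, and Eef2kmt lay on either side of 10 FPKM. The 58 genes with whole fragments took 3.26% of all fragments in the control library (exact 95% interval 3.25 to 3.27%) and 3.47% in the deletion library (3.46 to 3.48%). Eef1a1 alone took 0.988% (0.984 to 0.993%) and 1.14% (1.13 to 1.14%). These intervals hold counting error only, and copies of a molecule made by PCR count as separate fragments in them.

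**Figure D1:**
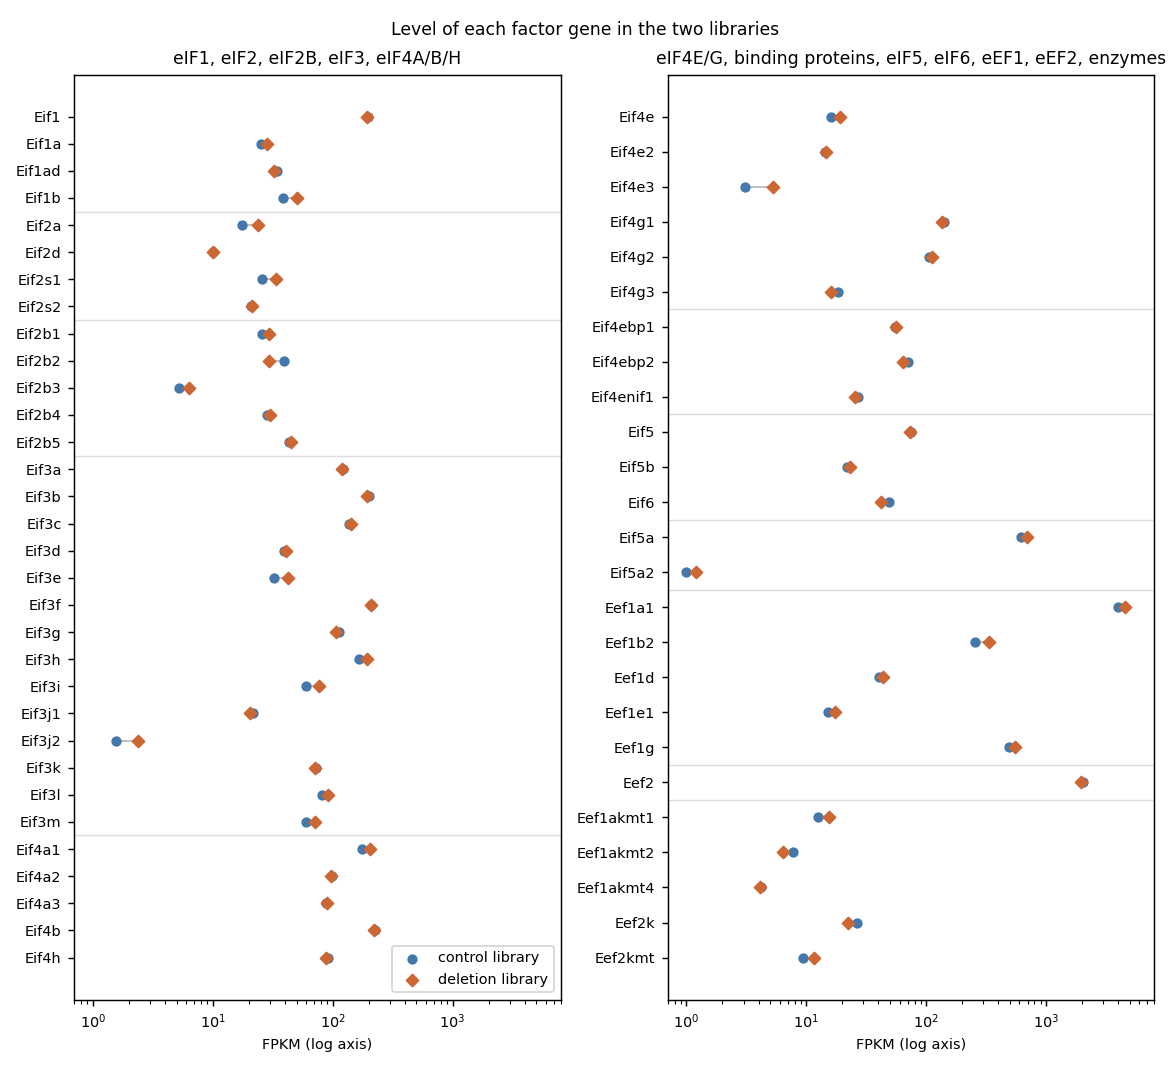
FPKM on a log axis of the 57 factor genes with a mean of 1 FPKM or more, with circles for the control library, diamonds for the deletion library and grey lines between blocks of genes that act together. Eef1a1 and Eef2 lie far to the right in both libraries, the paired symbols mostly touch, and the widest gaps are those of the low genes Eif4e3 (3.09 and 5.31 FPKM) and Eif3j2 (1.55 and 2.40 FPKM).

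Between libraries the factor genes differed little. On the log2(FPKM + 1) scale, deletion over control, which understates differences of low genes, 0 of the 57 factor genes at a mean of 1 FPKM or more were 2-fold higher and 0 were 2-fold lower. Among 10237 protein-coding genes at that level, 0.488% were higher and 0.752% lower by this rule. Among all 12325 genes 2.47% were higher and 3.38% lower, 5.86% in all, and a count of 0 among 57 is near the background of protein-coding genes. At 1.5-fold the count was 1 higher (Eif4e3) and 0 lower, against 2.54% and 2.75% of protein-coding genes. The median of the 57 log2 ratios was 0.061, with quartiles at -0.050 and 0.22. The median was -0.011 over all genes, -0.014 over protein-coding genes and 0.034 over protein-coding genes at a mean of 20 FPKM or more. The 44 factor genes at a mean of 20 FPKM or more had a median of 0.037, close to that of protein-coding genes above the same bound. Their median distance from 0 was 0.085, against 0.14 for the 2730 protein-coding genes at that level. The groups were not matched in level, with median control values of 71.7 FPKM for the 44 and 36.3 FPKM for the 2730.

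The direction of these small ratios depended on the scaling. As deposited, 34 of 57 ratios (59.6%) were above 0, against 47.9% of protein-coding genes and 48.4% of all genes. With both libraries rescaled to a common FPKM total, which moved the median of all genes by -0.14, 23 of 57 (40.4%) were above 0, against 28.2% of protein-coding and 30.8% of all genes, and the factor median was -0.084 against -0.15 for protein-coding genes. Among factor genes of at least 20 FPKM, 25 of 44 (56.8%) were above 0 as deposited and 15 (34.1%) at a common total, against 57.0% and 30.2% of protein-coding genes at that level. Rescaling turned 11 genes from above to below 0 and none the other way. The 11 are Eef1d, Eif2b4, Eif2b5, Eif2s2, Eif3c, Eif3d, Eif4a3, Eif4e2, Eif4ebp1, Eif4g2 and Eif5b, and their directions are those of 1 scaling only. Mitochondrially encoded genes, which took 8.91% of the FPKM total in control and 13.7% in deletion HSCs, enter that total.

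**Figure D2:**
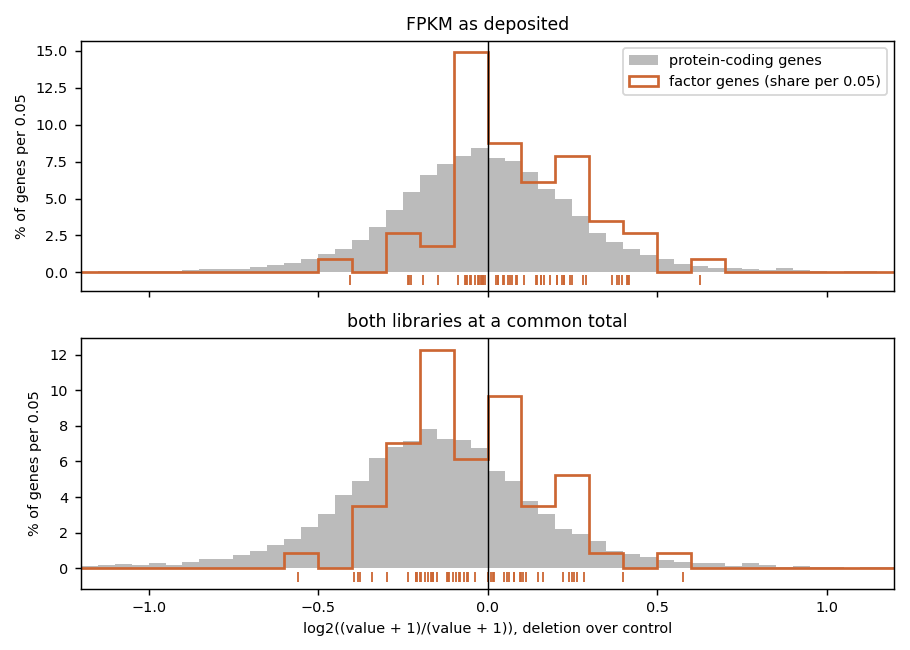
Distribution of log2 ratios, deletion over control with a pseudocount of 1, as percent of genes per 0.05 of ratio, for protein-coding genes (grey) and the 57 factor genes (outline, with a tick for each gene below), as deposited (top) and at a common total (bottom). Genes beyond 1.2 in either direction are not drawn, the factor genes lie inside the grey distribution, and both shift to the left together on the common total.

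Counting intervals were narrow for abundant genes, but some of these genes had ratios so near 0 that the interval included equality. An example is Eif3f, at -0.015 with an interval of -0.055 to 0.024. Of the 54 factor genes at the minimum level with whole fragments, the counting interval lay above equality for 25 and below it for 12. Among protein-coding genes the shares were 27.4% and 31.5%. Among the 41 such factor genes at a mean of 20 FPKM or more the interval lay above equality for 18 and below for 11, against 41.2% and 29.0% of protein-coding genes at that level. With fragments divided by 6 the counts over 54 were 15 and 6, against 9.01% and 11.1%, and over 41 they were 14 and 5, against 21.6% and 13.6%. Counting intervals do not include the spread between mice or libraries, which was not measured.

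**Figure D3:**
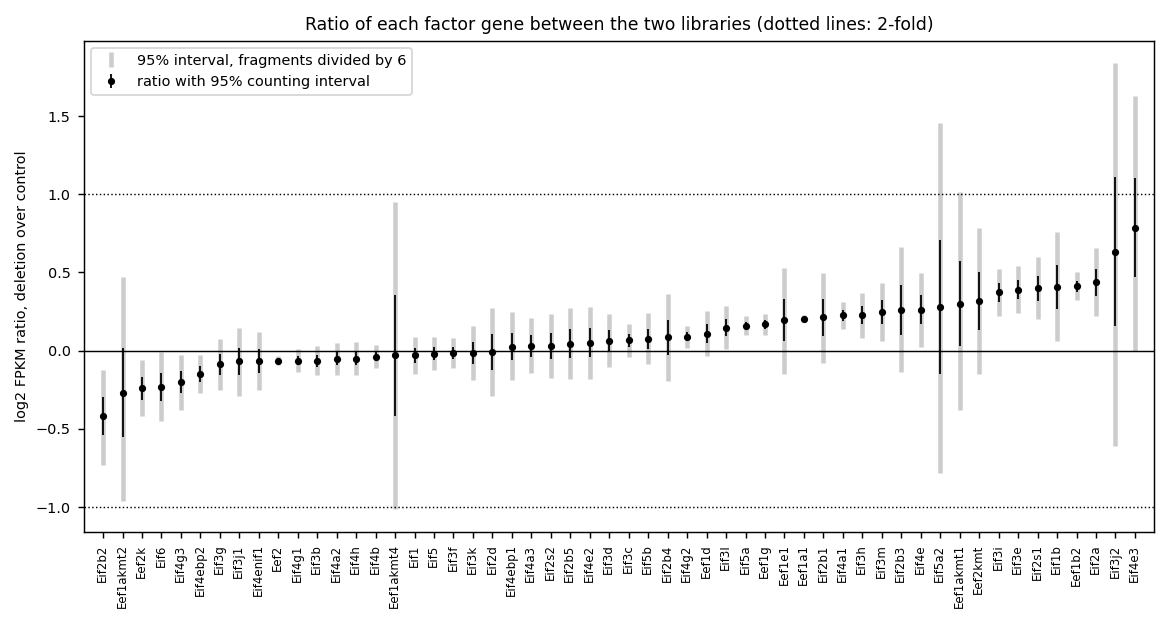
log2 ratio of FPKM without a pseudocount, deletion over control, of the 54 factor genes with fragment numbers, in order of the ratio, with 95% counting intervals from the fragments (black) and from the fragments divided by 6 (grey). Every point lies inside the dotted 2-fold lines, from Eif2b2 at -0.42 to Eif4e3 at 0.78, and the wide intervals belong to genes of few fragments.

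Factors of start site selection and of the eIF2 step held several of the higher ratios. Eif1, which keeps the ribosome scanning until a start codon is met, was at 196 FPKM in control HSCs and 192 in deletion HSCs, a log2 ratio of -0.030. Its paralog Eif1b was at 38.4 and 50.9 FPKM, a log2 ratio of 0.40 with a counting interval of 0.27 to 0.54 (0.06 to 0.76 with fragments divided by 6). Eif1a, which works beside eIF1 on the scanning ribosome, was at 25.5 and 28.5 FPKM, and Eif1ad, a protein with an eIF1A-like domain, at 34.0 and 32.6 FPKM. Eif1 and Eif1b stood 5.09-fold apart in control and 3.77-fold apart in deletion HSCs. Eif2s1, the alpha subunit of eIF2 whose phosphorylation lowers initiation under stress, was at 25.8 and 34.0 FPKM, a log2 ratio of 0.39 (counting interval 0.32 to 0.48). Eif2s2, the beta subunit, was at 20.8 and 21.2 FPKM, with an interval of -0.05 to 0.11 that included equality. The gamma subunit lies on the sex chromosomes and is not among the 61 genes. Eif2a, an unrelated factor that can bring initiator tRNA to the ribosome, was at 17.7 and 24.0 FPKM, with a log2 ratio of 0.42 that was 0.28 at a common total. Eif2d, which acts in reinitiation and recycling, was at 10.06 and 10.01 FPKM.

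Subunits of eIF2B, the complex that reloads eIF2 with GTP, did not differ alike. Eif2b2 (chromosome 12, 85219481 to 85226628, plus strand), the beta subunit, had the lowest log2 ratio of the 57 genes, at 39.5 FPKM in control HSCs and 29.6 in deletion HSCs. The ratio was -0.41 and the counting interval -0.54 to -0.30 (-0.73 to -0.12 with fragments divided by 6), from 1294 and 939 fragments. Eif2b1 was at 25.5 and 29.6 FPKM and Eif2b3 at 5.25 and 6.28 FPKM, log2 ratios of 0.21 and 0.22. Eif2b4 was at 28.5 and 30.3 FPKM. Eif2b5, the catalytic epsilon subunit, was at 43.7 and 45.0 FPKM from 1969 fragments in either library. Of the 5 subunits, only the interval of Eif2b2 lay below equality, those of Eif2b1 and Eif2b3 lay above it, and those of Eif2b4 and Eif2b5 included it. With fragments divided by 6 the intervals of Eif2b1 (-0.08 to 0.50) and Eif2b3 (-0.14 to 0.66) included equality too.

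The eIF3 complex, the scaffold that holds initiation factors on the small subunit, is represented by 12 subunit genes and by Eif3j1 and Eif3j2, which encode its loosely bound partner. Most of the 12 subunits had ratios near 0, and 4 stood higher. Eif3a, Eif3f and Eif3k lay within 0.02 of 0 on the log2 scale, at 121 and 120, 209 and 207, and 72.3 and 71.6 FPKM in the control and deletion libraries. Higher in the deletion library were Eif3e at 42.6 against 32.5 FPKM (log2 ratio 0.38), Eif3i at 77.4 against 59.8 (0.37), Eif3m at 71.5 against 60.3 (0.24) and Eif3h at 195 against 166 (0.22). All 4 stayed above 0 at a common total, from 0.08 for Eif3h to 0.24 for Eif3e. Eif3e, Eif3h and Eif3m belong to the outer ring of PCI and MPN domain subunits, as do the flat Eif3a, Eif3f and Eif3k. Eif3b, which with Eif3g and Eif3i forms another module, was at 201 and 193 FPKM, and Eif3g at 113 and 106 FPKM (log2 ratios -0.063 and -0.086). Of the remaining subunits, Eif3c was at 136 and 142 FPKM, Eif3d at 39.4 and 41.1, and Eif3l at 82.1 and 91.0 (log2 ratio 0.15). Eif3i thus did not share the ratio of Eif3b and Eif3g. Eif3j1, at 21.6 and 20.6 FPKM, stood 14.0-fold above Eif3j2 in control and 8.60-fold in deletion HSCs, but Eif3j2, at 1.55 and 2.40 FPKM, rested on 64 and 96 fragments.

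Levels of eIF3 subunits looked unequal as deposited, and much of that depended on the gene length used. Per kilobase of the whole gene model they ran from 32.5 FPKM (Eif3e) to 209 FPKM (Eif3f) in the control library, a 6.44-fold range. Per kilobase of the transcript with the longest coding sequence, a length added later, they ran from 103 (Eif3d) to 252 (Eif3k), a 2.45-fold range. The model of Eif3e has 6719 exonic bases while that transcript has 1506, and for Eif3k the lengths are 2698 and 774. In the deletion library the range was 5.04-fold by gene model and 2.37-fold by transcript. The range of the 5 eIF2B subunits in the control library was 8.31-fold by gene model and 2.11-fold by transcript, with Eif2b3 lowest on both scales (5.25 and 22.02 FPKM). The eEF1B subunits stayed unequal, with Eef1g 12.2-fold above Eef1d by gene model and 7.43-fold by transcript. The choice of length does not enter the plain FPKM ratio between libraries, but it does enter log2 ratios with a pseudocount, mostly those of low genes.

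**Figure D4:**
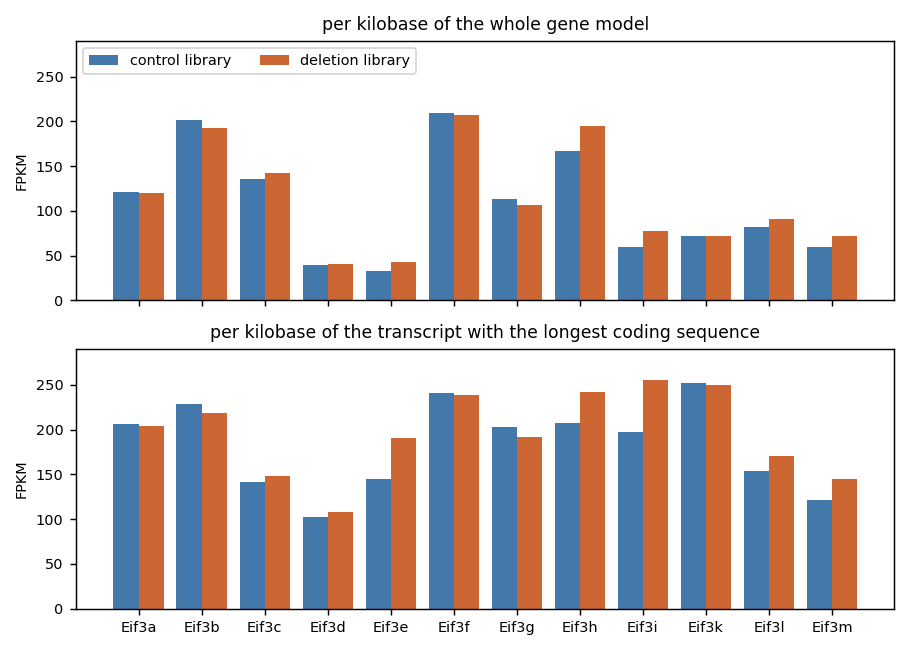
FPKM of the 12 eIF3 subunit genes in the control library (blue) and the deletion library (orange), per kilobase of all exonic bases of the gene model (top) and per kilobase of the transcript with the longest coding sequence (bottom). The bars run from 32.5 to 209 in the top panel and from 103 to 255 in the bottom panel, and relative to their height Eif3e and Eif3i show the widest gaps between libraries in both.

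Among the cap-binding and unwinding factors, the helicase gene Eif4a1 (chromosome 11, 69666936 to 69672423, minus strand) was at 175 FPKM in control HSCs and 204 in deletion HSCs, a log2 ratio of 0.22 (counting interval 0.19 to 0.26) that was 0.077 at a common total. Its paralog Eif4a2 was at 99.6 and 96.0 FPKM. Whether Eif4a1 or Eif4a2 was the more abundant in the control library depended on the length, with a ratio of 1.75 by gene model and 0.985 by transcript. Eif4a3, the paralog that sits in the exon junction complex, was at 87.8 and 89.6 FPKM. The helicase partners Eif4b, at 227 and 221 FPKM, and Eif4h, at 91.1 and 88.0 FPKM, had log2 ratios of -0.038 and -0.050.

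The eIF4E family and its regulators had small ratios in both directions. Eif4e, the cap-binding protein, was at 16.0 FPKM in control HSCs and 19.2 in deletion HSCs (log2 ratio 0.25, counting interval 0.17 to 0.36, 0.11 at a common total). Eif4e2, a cap-binding repressor, was at 14.2 and 14.7 FPKM. Eif4e3 (chromosome 6, 99625135 to 99666771, minus strand), a cap-binding relative, had the highest log2 ratio of the 57 genes, 0.63, at 3.09 and 5.31 FPKM from 135 and 225 fragments. Its plain ratio was 1.72-fold, and the counting interval of 0.47 to 1.10 on the log2 scale widened to one that reached equality with fragments divided by 6. Of its exonic bases, 373 of 2515 are shared with another gene model on the same strand. Eif4ebp2, at 71.1 and 64.1 FPKM, had a log2 ratio of -0.15 (interval -0.20 to -0.10), and Eif4ebp1 was at 55.2 and 56.2 FPKM. Eif4enif1, which carries eIF4E into the nucleus, was at 26.8 and 25.6 FPKM. The ratio of Eif4ebp2 to Eif4e was 4.44 in control HSCs and 3.34 in deletion HSCs. Of the scaffolds, Eif4g1 was at 141 and 135 FPKM (log2 ratio -0.063), Eif4g3 at 18.3 and 15.9 FPKM (-0.19, interval -0.27 to -0.13), and Eif4g2, a relative that lacks the eIF4E-binding site, at 106 and 112 FPKM.

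Eif4ebp3 (chromosome 18, 36664060 to 36665917, plus strand) was detected in control HSCs only, and it lay under the minimum level. It had 24 fragments (1.86 FPKM) in control HSCs and 0 in deletion HSCs. Fewer protein-coding genes were above 0 in the deletion library in all, 13491 against 14840 in the control library. A floor of 3 fragments in the deletion library is 0.239 FPKM, and the control value was 7.75-fold above it. This fold leaves out the counting error of the 24 fragments. The upper end of the counting interval was -2.54 on the log2 scale. With fragments divided by 6 the upper end of the interval was 0.64 on the log2 scale, so equality was included. Of its 744 exonic bases, 501 lie in another protein-coding model on the same strand. The other 3 genes under the minimum were Eef1akmt3, with 2 fragments in control HSCs and 0 in deletion HSCs, and Eef1a2 and Eif4e1b, both listed at 0 in both libraries. A count of 0 allows up to 3 fragments. Eef1a2 encodes the eEF1A form of muscle and neurons, and Eif4e1b an oocyte form of eIF4E.

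Late initiation and elongation factors had ratios in both directions. Eif5, which stimulates GTP hydrolysis by eIF2, was at 74.9 and 73.9 FPKM, and Eif5b at 21.8 and 23.0 FPKM. Eif6, which keeps free large subunits from joining, was at 49.0 FPKM in control and 41.7 FPKM in deletion HSCs (log2 ratio -0.23, counting interval -0.32 to -0.14, -0.37 at a common total). Eif5a, the hypusine-bearing factor that helps ribosomes through difficult peptide bonds, was at 619 and 691 FPKM (0.16, 0.011 at a common total), while its paralog Eif5a2 was at 0.98 and 1.19 FPKM. As deposited, all 5 genes grouped as eEF1 by their symbols and at the minimum level had ratios above 0, and at a common total all but Eef1d. The shares over protein-coding genes were 47.9% and 28.2%. Eef1b2, a nucleotide exchange subunit for eEF1A, led at 337 FPKM in the deletion library against 254 in the control library (log2 ratio 0.41, counting interval 0.38 to 0.45, 0.26 at a common total). Eef1a1 (0.21), Eef1e1 (0.19, at 17.3 against 15.1 FPKM), Eef1g (0.17) and Eef1d (0.11, at 43.2 against 40.1 FPKM) followed. Eef2 went the other way at -0.065 (interval -0.08 to -0.05), so Eef1a1 stood 1.96-fold above Eef2 in control and 2.36-fold in deletion HSCs.

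Genes of enzymes that act on elongation factors had ratios in both directions. Eef2k, the kinase that inhibits eEF2, was at 26.3 FPKM in control HSCs and 22.3 in deletion HSCs (log2 ratio -0.23, counting interval -0.31 to -0.17). Eef2kmt, an eEF2 methyltransferase, was at 9.37 and 11.7 FPKM (0.29), and the eEF1A methyltransferase genes Eef1akmt1 at 12.5 and 15.4 FPKM (0.28), Eef1akmt2 at 7.70 and 6.39 FPKM (-0.23) and Eef1akmt4 at 4.21 and 4.12 FPKM (-0.024). With fragments divided by 6, the intervals of Eef2kmt and of the 3 Eef1akmt genes included equality, while that of Eef2k, -0.42 to -0.06, did not.

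Processed pseudogenes, copies of mRNAs in the genome, are plentiful in this family and can take fragments from their parents. Transcripts of 72 annotated pseudogenes matched 22 factor genes best (at least 90% identity over 300 bases), and 32 of them were above 0. Eif4a-ps4 on chromosome 1 is 99.9% identical to Eif4a1 over 1218 bases and was at 120 FPKM in control HSCs and 147 in deletion HSCs. It held 16.2% and 16.8% of the fragments of parent and copies. Gm9892, 99.5% identical to Eif2s2, was at 16.7 and 22.4 FPKM, and held 10.6% and 13.4%. Gm4366, 99.6% identical to Eef1g, was at 39.4 and 42.9 FPKM. Eif4a1 and Eif2s2 were the only factor genes whose copies held more than 10%. Eef1a1 had 11 copies and Eif1 19, but together these held less than 0.5% in each library. With copies added to parents, the log2 ratio without a pseudocount was 0.24 for Eif4a1 and 0.078 for Eif2s2. Such levels are uncertain, since the counting could have split fragments between near-identical sequences. Exons of 15 factor genes also overlap those of another protein-coding gene, by 1643 bases for Eif5b with Rev1 and 1107 for Eif3j1 with Spg11 on the opposite strand. The counting is not stated to use strand.

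Other genes of the translation pathway were read from 9 lists, whose values are given as deletion against control. Of their 92 genes that reached the minimum level, 0 were 2-fold higher and 0 were 2-fold lower, near the background of 0.488% and 0.752% of protein-coding genes. All 5 termination and recycling genes had ratios above 0 (median 0.20), and 4 of 5 at a common total, where the release factor gene Etf1 (82.6 against 75.4 FPKM) was just below 0. Its partner Gspt1 was at 50.3 against 44.8 FPKM and the rescue factor gene Pelo highest at 4.08 against 3.16. Of 11 scanning and accessory factors 6 were above 0, 3 at a common total (medians 0.014 and -0.13), from Gcn1l1 at 15.7 against 19.2 FPKM and Larp1 at 52.9 against 61.3 to Bzw2 at 27.9 against 22.5 and Mcts1 at 22.9 against 15.1. Of 5 poly(A)-binding genes 2 were above 0, 1 at a common total (median -0.066 as deposited), from Paip2b at 4.50 against 5.68 FPKM to Paip2 at 51.3 against 45.0. Of 9 mitochondrial translation factors 6 were above 0, 5 at a common total (median 0.14 as deposited), from Mrrf at 5.36 against 5.76 FPKM to Mtrf1 at 5.19 against 3.12.

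Regulators of the factors had ratios on both sides of 0, as did all genes, of which 48.4% were above 0 as deposited and 30.8% at a common total. Of the 4 eIF2 kinases and the 2 regulatory subunits of the eIF2 phosphatase, 5 of 6 were below 0 (median -0.13), with Eif2ak2 at 9.84 against 11.5 FPKM. Only Eif2ak4 (8.95 against 8.61 FPKM) was above 0, and it too was below 0 at a common total. Of 15 mTORC1 and MNK genes 9 were below 0 and 11 at a common total (median -0.18 as deposited), among them Mlst8 at 7.44 against 10.2 FPKM and Akt1s1 at 18.2 against 23.2. Rheb, the GTPase that activates mTORC1, was highest at 9.20 against 5.95 FPKM. Of 13 targets of the eIF2 stress pathway 10 reached the minimum level, and 4 of these 10 ratios were above 0, 2 at a common total (median -0.081 as deposited). Atf4 was at 118 against 130 FPKM, Atf5 lowest of the 10 at 3.87 against 4.99 and Mthfd2 highest at 10.7 against 8.94. Under the minimum, Trib3 (0.279 against 0.948 FPKM), Chac1 (0.073 against 0.457) and Slc7a11 (0 against 0.128) were lower in the deletion library. They rested on 10 against 35, 2 against 13 and 0 against 31 fragments, and no interval was computed. The deletion library had fewer genes above 0 in all, 18217 against 21891. The hypusine and diphthamide enzymes, which modify eIF5A and eEF2, had 4 of 9 above 0, 3 at a common total (median -0.068 as deposited). Dhps, the first hypusine enzyme, was lowest at 13.3 against 17.4 FPKM, and Dnajc24, a diphthamide gene, highest at 11.6 against 7.48. The list of cytosolic aminoacyl-tRNA synthetase genes also holds Aimp1 and Aimp2, whose proteins bind synthetases and are not synthetases. It had 13 of 22 ratios above 0 and 6 at a common total (medians 0.017 and -0.13). Vars was at 146 against 171 FPKM and Aimp1 at 15.6 against 11.6. Over all genes the median as deposited was -0.011.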

How the data were processed

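RNA of sorted HSCs was sequenced as 150 bp paired-end reads, per the labels' protocols. The deposited table gives FPKM, calculated by the authors. The submitters' processing notes list Bowtie 0.12.2 and mm8 but not what they were used for, and the sources used here name no counting program or annotation. Control and deletion columns were matched by sample description, with 1 library per genotype and thus no test. Exon lengths, types and positions came from GENCODE M21 (GRCm38), found for 54494 identifiers. Ratios are log2((FPKM + 1)/(FPKM + 1)), counted at a mean of at least 1 FPKM. Intervals are exact Clopper-Pearson (95%) from fragments recovered as FPKM times exon length. Pseudogene copies were found with blastn 2.17.0. Promoter windows are RefSeq's. The method was tested on simulated data (Python 3.11.15) with counting noise only and planted changes larger than 2-fold. The simulation did not copy the fragment pattern of the deletion library, and smaller planted changes were not tried. Any factor gene could be named, and of other lists the ends. Atf4, Etf1, Gspt1, Gm4366, Trib3, Chac1 and Slc7a11 were chosen after their values were seen. Members and lists were chosen with earlier results of these data known. Alternatives were pseudocounts of 0.1 and 5, minimum means, common totals, centring, trimmed means and thresholds.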

Additional observations from a re-analysis of the deposited data

How the results depend on the processing

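No paired analysis was possible because each genotype has 1 library. The median log2 ratio of the factor genes, 0.061, became -0.084 with both libraries at a common total and -0.0065 when mitochondrially encoded genes were left out of that total. It stayed above 0, between 0.047 and 0.088, with pseudocounts of 0.1 and 5, no minimum, a minimum mean of 5 FPKM, median centring, trimmed-mean scaling, the mean of the list, regulators left out, and, added after seeing the data, pseudogene copies summed with their parents. The counts of 0 genes 2-fold higher and 0 lower became 1 lower (Eif4ebp3) without a minimum level and 1 higher (Eif4e3) at a threshold of 1.5-fold, and stayed at 0 at a threshold of 4-fold. For the 8 highest and 8 lowest genes at a mean of at least 5 FPKM, 78 of 96 alternative values lay within the counting interval of the gene. The 18 others came from the common totals, with or without mitochondrially encoded genes. No sign turned, but these 16 genes were picked for their ratios and the common totals lowered all 16. Their kept signs are therefore no check of direction, and 11 other factor genes did turn at a common total. Genes under about 100 fragments, such as Eif3j2, are limited by depth.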
